A study of Mus musculus with 64 samples.

Results

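The libraries described here compare Uqcrfs1-heterozygous with wild-type mouse microglia after repopulation. They are the 4 libraries labelled RISP Het and the 4 labelled RISP WT, PLX3397 repopulation, adult, and they were chosen by those labels alone, 8 of the 64 libraries of the series. The series measured total RNA of microglia sorted from whole brain on CD11b and CD45, in KO, Het and WT for RISP, in naive, cuprizone-treated and PLX3397-treated mice. PLX3397 inhibits CSF1R, the receptor that microglia need to survive, so treatment depletes them, and they repopulate the brain when it is withdrawn. The comparison asks whether the loss of 1 Uqcrfs1 copy changes other genes, and in the cuprizone libraries of the series Het is the group set beside KO. The labels give no dose, day or sex, and do not say what drives the loss of Uqcrfs1 or whether replicates are separate animals, so that p-values measure the spread between these libraries. Both groups also held counts on the transgene sequences CreERT2 (488 to 644 counts per M, CPM, in Het and 496 to 840 CPM in WT libraries) and tdTomato, so that Het and WT differ by label in Uqcrfs1 and not in carrying these.

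RISP, the Rieske iron-sulphur protein encoded by Uqcrfs1, is a catalytic subunit of respiratory complex III. It takes electrons from ubiquinol and passes them to cytochrome c1, and complex III cannot run its cycle without it. Cells with a blocked respiratory chain commonly switch on the integrated stress response, a programme of amino acid and one-carbon genes driven by ATF4.

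The 8 libraries had 11.6 to 15.5 M counts each. Of 45708 genes in the table, 22170 had 0 counts in all 8 libraries and 12931 had enough counts to be tested. Log2 levels of library pairs correlated at 0.939 to 0.972 across genes. Sex was read from 4 Y-linked genes and gave 3 female and 1 male Het libraries (the male is Het replicate 4), against 2 female and 2 male WT libraries (the males are WT replicates 3 and 4). On the first principal component, with 32.3% of the variance, Het 1, Het 3, WT 1 and WT 2 lay on one side and Het 2, Het 4, WT 3 and WT 4 on the other. Homeostatic microglia genes summed to 76727 to 85345 CPM in Het libraries and 78346 to 90793 CPM in WT libraries, so the labelled cell type held in both groups.

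Uqcrfs1 (ENSMUSG00000038462, GRCm38 chromosome 13, 30540308 to 30545362, minus strand, 2 exons, protein-coding) was lower in Het than in WT microglia. The Het libraries held 30.3, 30.2, 30.5 and 36.8 CPM, and the WT libraries 52.9, 48.9, 66.3 and 58.2 CPM. The groups did not overlap, and the highest Het library was below the lowest WT library in each sex. In edgeR's quasi-likelihood test the log2 fold change was -0.82 ± 0.12 (SE, 95% interval -1.09 to -0.56, unadjusted p = 5.87e-05), which puts Het at 56.5% of the WT level, with an interval of 47.0% to 68.0%. An exact two-sided permutation test over the 4 and 4 libraries gave p = 0.0286, the smallest that 70 regroupings can give. Of the 12931 genes tested, Uqcrfs1 had the smallest p. It did not pass the Benjamini-Hochberg adjustment over all genes in edgeR (adjusted p = 0.367), and did in DESeq2's Wald test (adjusted p = 3.04e-06).

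The level of Uqcrfs1 in Het stood between those of KO and WT. The 4 KO repopulation libraries held 9.46, 6.94, 6.68 and 11.2 CPM, and the KO minus WT log2 fold change was -2.74 ± 0.17. The Het mean lay 51.3% of the way from the WT mean to the KO mean. In other libraries of the same genotypes the difference was less regular. At depletion the 2 Het libraries had 31.1 and 53.4 CPM and the 4 WT libraries 37.8 to 65.2 CPM, so that 1 Het library lay below the WT range and 1 inside it (log2 fold change -0.20 ± 0.29, exact permutation p = 0.467, the smallest possible being 0.0667).

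In naive adults the 4 Het libraries that, like WT, had under 1% of counts on the RNAs Gm26917 and Yam1 held 39.0, 24.3, 22.2 and 20.03 CPM, and the 5 WT libraries 35.8 to 46.2 CPM (log2 fold change -0.63 ± 0.19, exact permutation p = 0.0238, the smallest possible being 0.00794). The first of these Het libraries, which lay inside the WT range, was the male one, and all 5 naive WT libraries were male. Sex and genotype cannot be told apart in the other 3. The difference between the Het effects at repopulation and at depletion was -0.63 ± 0.29 (edgeR interaction term, unadjusted p = 0.0505).

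**Figure D1:**
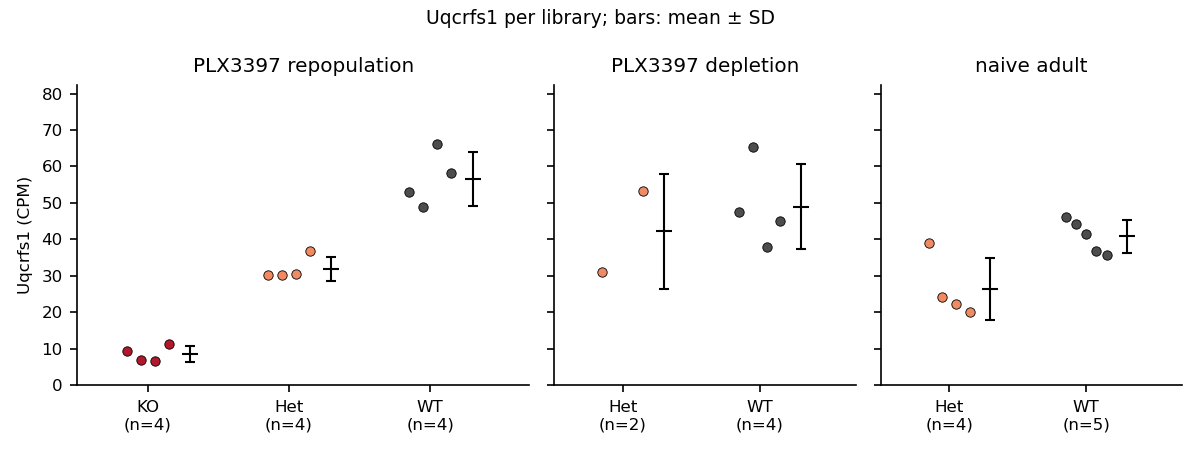
Uqcrfs1 in CPM in each library (points), with the mean and SD of each group (bars), for KO, Het and WT at repopulation and for Het and WT at depletion and in naive adults. At repopulation the 4 Het libraries lie between 30.2 and 36.8 CPM, all below the 4 WT libraries and above the 4 KO libraries, while 1 Het library reaches the WT range at depletion and 1 in naive adults.

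Beyond Uqcrfs1, the test across all genes gave few or no calls, depending on the tool. No gene passed an adjusted p of 0.05 in edgeR (0% of 12931 genes). At an unadjusted p under 0.05 there were 623 genes (4.82%), of which 330 were higher in Het (2.55%) and 293 lower (2.27%). DESeq2's Wald test on the same libraries called 26 genes, Uqcrfs1 among them (0.202% of the 12893 genes it adjusted), 13 higher (0.101%) and 13 lower (0.101%) in Het, and had 728 genes at an unadjusted p under 0.05. The edgeR fits with all 12 repopulation libraries, with all 64 libraries and with sex as a factor called 0 genes each and had 687, 346 and 728 genes at an unadjusted p under 0.05. The 5 female libraries alone gave 2 calls in edgeR, Chm and Mettl17, both lower in Het and both with male WT libraries at the Het level.

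For KO against WT among the repopulation libraries, edgeR called 2013 of 13388 genes (15%), of which 979 were higher in KO (7.31%) and 1034 lower (7.72%). That comparison shares the WT libraries with the one of Het.

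The size of change that the 8 libraries could show depended on the level of the gene. The 95% interval of the Het minus WT log2 fold change had a median half-width of 0.41 over all genes tested. It lay wholly between -1 and 1 for 9384 of 12931 genes (72.6%). That share was 16.0% below a mean log2 CPM of 2, 72.5% between 2 and 4, and 93.1% to 96.8% at each level above. For most genes above a log2 CPM of 4, a doubling or halving thus lay outside the interval, and smaller changes may not be detectable at this depth and replication.

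Among genes with a mean log2 CPM of at least 2, the 5 with the smallest p on the higher side in Het were Zbtb34, Urb1, Kmt2b, Chuk and Neat1. Each of these 5 and of the 5 on the lower side had 4 Het libraries that did not overlap the 4 WT libraries, as 2.88% of all genes tested did, and a small p selects for this. None passed the adjustment in edgeR (adjusted p 0.367 to 0.959), and all 10 were among DESeq2's 26 calls. None of the 10 stands in the gene lists used here.

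Zbtb34, a zinc finger protein, had 35.0, 36.8, 32.0 and 34.0 CPM in Het and 20.8, 22.8, 24.4 and 22.5 CPM in WT libraries (log2 fold change 0.61 ± 0.09). Urb1, a factor of large ribosomal subunit assembly, had 22.9, 26.3, 16.6 and 18.1 CPM in Het and 10.3, 10.3, 7.66 and 8.91 CPM in WT libraries (1.17 ± 0.18). Kmt2b, which methylates histone H3 at lysine 4, had 100.3, 96.3, 97.8 and 85.7 CPM in Het and 50.1, 67.2, 36.5 and 54.0 CPM in WT libraries (0.87 ± 0.16). Every Het library of these 3 genes lay above every WT library, and both sexes are represented on each side. Chuk, which encodes the IKK-alpha kinase of NF-kB signalling, averaged 26.4 CPM in Het and 17.7 CPM in WT (0.58 ± 0.12), and the nuclear RNA Neat1, which builds paraspeckles, averaged 15.5 CPM in Het and 9.07 CPM in WT (0.78 ± 0.15).

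On the lower side, Atxn3, a deubiquitinase, had 28.3, 29.3, 30.4 and 36.1 CPM in Het and 43.5, 56.6, 57.3 and 66.8 CPM in WT libraries (log2 fold change -0.85 ± 0.14). Tmem168, a membrane protein, had 138, 115, 152 and 122 CPM in Het and 180, 186, 176 and 212 CPM in WT libraries (-0.51 ± 0.10). Ept1, which makes phosphatidylethanolamine, had 26.4, 28.5, 25.1 and 21.7 CPM in Het and 33.1, 42.3, 40.9 and 55.7 CPM in WT libraries (-0.75 ± 0.16). The collagen gene Col3a1, a fibroblast product, was at 4.45 to 5.99 CPM in Het libraries and 8.35 to 15.3 CPM in WT libraries (-1.07 ± 0.23). The fifth gene of this side, Ly86, is described below with the region of Uqcrfs1.

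**Figure D2:**
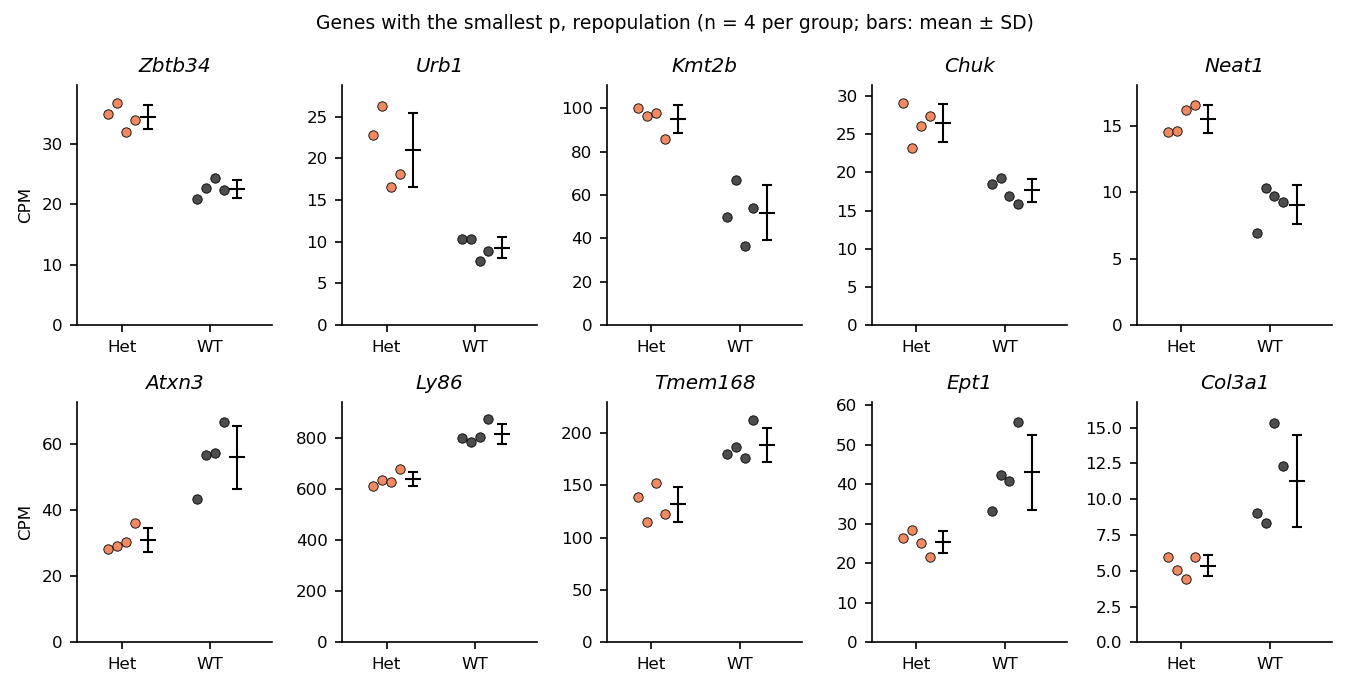
CPM in each Het and WT repopulation library (points), with the mean and SD of the 4 libraries of a group (bars), for the 5 genes with the smallest unadjusted p on each side. The genes were chosen by p, so that the lack of overlap between Het and WT in the panels is a description, and no gene passed the edgeR adjustment over 12931 genes.

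These differences were then read in libraries that the selection had not used. At depletion, 1 of the 10 genes had an unadjusted p under 0.05, Kmt2b, in the opposite direction (log2 fold change -0.73, unadjusted p = 0.00770). Its depletion libraries had 49.3 and 37.8 CPM in Het and 63.2 to 92.4 CPM in WT. In naive adults 2 of the 10 had such a p: Ly86 in the same direction and Tmem168 in the opposite one (log2 fold change 0.45, unadjusted p = 0.0261). Of DESeq2's 25 calls other than Uqcrfs1, 24 were tested at depletion and 25 in naive adults. At depletion 10 of 24 had the sign seen at repopulation, and 0 of these and 1 of the others had an unadjusted p under 0.05, where 8.05% of all genes did in either direction. In naive adults 12 of 25 had that sign, and 2 of these and 3 of the others had such a p, where 17.3% of all genes did. For Kmt2b, naive Het libraries had 54.8 to 65.7 CPM and naive WT libraries 43.6 to 79.9 CPM. Chuk lay at 18.9 to 22.8 CPM in naive Het and 21.1 to 23.1 CPM in naive WT libraries.

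Ly86 and Cdkal1, both on the chromosome of Uqcrfs1, had an unadjusted p under 0.05 in the same direction at repopulation and in naive adults, and passed the edgeR adjustment over all genes in neither set. So did Rreb1, 7.24 Mb from Uqcrfs1, higher in Het at repopulation (log2 fold change 0.17, edgeR unadjusted p = 0.0451) and in naive adults (0.58, edgeR unadjusted p = 0.00300). At depletion Rreb1 was lower in Het (-0.41, edgeR unadjusted p = 0.00952). Such a p in either direction was held by 4.82% of all genes at repopulation and 17.3% in naive adults, and the share with both was not counted. Ly86 (ENSMUSG00000021423, chromosome 13, 37345208 to 37419036, plus strand, 6.80 Mb from Uqcrfs1) encodes MD-1, the partner of the Toll-like receptor homologue RP105. It had 613, 636, 630 and 681 CPM in Het and 803, 785, 805 and 877 CPM in WT libraries (log2 fold change -0.35 ± 0.06, edgeR unadjusted p = 0.000199, adjusted p = 0.428, DESeq2 adjusted p = 3.04e-06). The KO libraries had 330, 333, 349 and 344 CPM, so that the 3 genotypes formed 3 separate ranges (KO minus WT -1.28, edgeR adjusted p = 8.75e-08). Among the other genes with the smallest p, Urb1, Chuk, Neat1 and Tmem168 were also called in KO against WT, in the direction of Het. Zbtb34, Kmt2b, Atxn3, Ept1 and Col3a1 were not called there (edgeR adjusted p 0.0789 to 0.990). Both comparisons share the WT libraries.

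In naive adults Ly86 was at 534, 414, 403 and 381 CPM in Het libraries and 527 to 605 CPM in WT libraries (log2 fold change -0.39, edgeR unadjusted p = 0.00165, adjusted p = 0.146). The 1 Het library within the WT range was the male one, as for Uqcrfs1. At depletion the groups overlapped, with 591 and 560 CPM in Het libraries and 550 to 620 CPM in WT libraries (-0.03, unadjusted p = 0.714).

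Cdkal1, a tRNA-modifying enzyme gene 1.35 Mb from Uqcrfs1 (chromosome 13, 29191746 to 29855674, minus strand), had 14.0, 17.8, 16.2 and 15.7 CPM in Het and 9.45, 9.80, 11.96 and 11.7 CPM in WT libraries. Its log2 fold change was 0.57 ± 0.14 (edgeR unadjusted p = 0.00277, not called). KO libraries had 17.8 to 21.3 CPM (KO minus WT 0.85, edgeR adjusted p = 0.000975), so WT was the lowest of the genotypes. The naive libraries had 15.8 to 19.4 CPM in Het, the male one included, and 11.7 to 13.5 CPM in WT, without overlap (0.46, unadjusted p = 0.00160). At depletion the 2 Het libraries had 17.7 and 12.98 CPM and the 4 WT libraries 9.45 to 12.7 CPM (0.50, unadjusted p = 0.0665). Cdkal1 was thus higher in every Het library than in every WT library of its set in all 3 sets, which was seen after its values were known. At repopulation 2.88% of all genes tested had ranges that did not overlap, in either direction. The share for all 3 sets was not counted, and at depletion, with 2 Het libraries, the gap was from 12.7 to 12.98 CPM.

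Few genes of that region had a small p. Within 10 Mb of Uqcrfs1, 76 genes were tested, with 2 higher and 3 lower in Het at an unadjusted p under 0.05. Over all genes 4.82% had such a p, so this count is near that share. The median log2 fold change of the 76 genes was 0.01, as over all genes. The other near neighbours with enough counts included E2f3, a cell cycle transcription factor, at 26.8 to 94.0 CPM in Het libraries and 22.4 to 87.8 CPM in WT libraries, and Irf4, an interferon regulatory factor, at 5.38 to 8.05 CPM in Het libraries and 6.90 to 9.26 CPM in WT libraries. Both ranges overlap. Foxq1, a forkhead factor, was at 0.841 to 1.76 CPM in Het libraries and 1.46 to 4.56 CPM in WT libraries (log2 fold change -1.07, unadjusted p = 0.0464). In KO against WT, 11 of the 76 genes were higher and 7 lower at an adjusted p of 0.05 in edgeR, against 7.31% higher and 7.72% lower over all genes.

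No other complex III gene reached an unadjusted p under 0.05 in edgeR, which 4.82% of all genes did, so that 0 of 15 is near that share. Of 15 subunit and assembly genes other than Uqcrfs1, 0 passed in DESeq2, 5 had a positive fold change and the median log2 fold change was -0.04, against 0.01 over all genes. The core subunit Uqcrc1 had 98.2, 108, 98.9 and 128 CPM in Het and 118, 109, 139 and 107 CPM in WT libraries (log2 fold change -0.12 ± 0.12). Uqcrc2, the other core subunit, had 86.8 to 90.9 CPM in Het libraries and 81.4 to 109 CPM in WT libraries (-0.12 ± 0.10). Both groups overlapped for each of them.

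Cytochrome c1, encoded by Cyc1, which takes the electron from RISP, had 46.8 to 58.2 CPM in Het libraries and 49.3 to 68.4 CPM in WT libraries (-0.18 ± 0.12). Cytochrome b, encoded in mitochondrial DNA by mt-Cytb, had 1971 to 2758 CPM in Het libraries and 1917 to 2829 CPM in WT libraries (-0.02 ± 0.15). Bcs1l, which inserts RISP into the complex, had 8.66 to 12.9 CPM in Het libraries and 10.5 to 17.1 CPM in WT libraries (-0.18 ± 0.20). The largest fold change of the list, 1.14 ± 0.93 for the assembly factor Lyrm7, came with 0.400 to 8.32 CPM in Het libraries and 0.602 to 3.17 CPM in WT libraries and had an unadjusted p of 0.254.

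In the rest of the respiratory chain 3 genes reached an unadjusted p under 0.05, which 4.82% of all genes did, so that the counts below are near that share. Of 36 complex I genes, 1 was higher and 1 lower in Het at that p: Ndufs1, the large iron-sulphur subunit, at 58.0 to 63.5 CPM in Het libraries and 49.5 to 56.5 CPM in WT libraries, and Ndufab1, the acyl carrier subunit, at 8.47 to 16.2 CPM in Het libraries and 16.2 to 19.3 CPM in WT libraries. Complex IV had 1 of 19 genes at that p (Cox7b, lower), and complexes II and V had 0 of 7 and 0 of 14. Their list medians ran from -0.11 to -0.02. The 13 mitochondrial DNA genes had 0 at that p and a median of -0.02, and mitochondrial transcripts took 3.55% to 4.09% of counts in KO, 2.17% to 2.87% in Het and 2.42% to 2.85% in WT libraries.

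Most integrated stress response genes were higher in KO. Between Het and WT, 0 of 26 tested genes had an unadjusted p under 0.05 in edgeR, near the 4.82% of all genes, and the median log2 fold change was 0.13. That median was 0.06 without Het replicate 4, 0.10 with sex as a factor and 0.04 in female libraries alone. In each of the last 2 fits, 2 of 26 genes were higher at such a p. Such a p was held by 5.63% of all genes with sex as a factor and 4.19% in female libraries alone, in either direction. In KO against WT, 20 of 28 were higher and 0 lower at an adjusted p of 0.05 in edgeR, with a median of 1.31. Of all genes, 7.31% were higher and 7.72% lower in KO at that adjusted p. Atf5, a transcription factor of the response, had 176 to 272 CPM in KO libraries, 10.9, 12.9, 11.5 and 15.1 CPM in Het and 10.9, 16.3, 14.8 and 13.2 CPM in WT libraries. The KO minus WT log2 fold change was 3.88, and the Het minus WT one -0.13 with an interval of -0.51 to 0.25.

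Mthfd2, a mitochondrial folate enzyme, had 80.2 to 110 CPM in KO, 12.5 to 18.9 CPM in Het libraries and 11.7 to 19.9 CPM in WT libraries (KO minus WT 2.58, Het minus WT -0.10 ± 0.19). Aldh1l2, another folate enzyme, had 39.0 to 84.3 CPM in KO, 3.66 to 6.15 CPM in Het libraries and 3.13 to 5.02 CPM in WT libraries (3.70 for KO and 0.32 ± 0.26 for Het). The amino acid transporter Slc7a5 had 434 to 574 CPM in KO, 136 to 157 CPM in Het libraries and 119 to 164 CPM in WT libraries (1.81 for KO and -0.01 ± 0.11 for Het). For each of these genes Het and WT overlapped and both lay below every KO library. Tmem176b, an ion channel-like membrane protein and one of the genes lower in KO, was named after its values were seen. It had 127 to 134 CPM in KO, 373 to 401 CPM in Het libraries and 368 to 438 CPM in WT libraries.

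**Figure D3:**
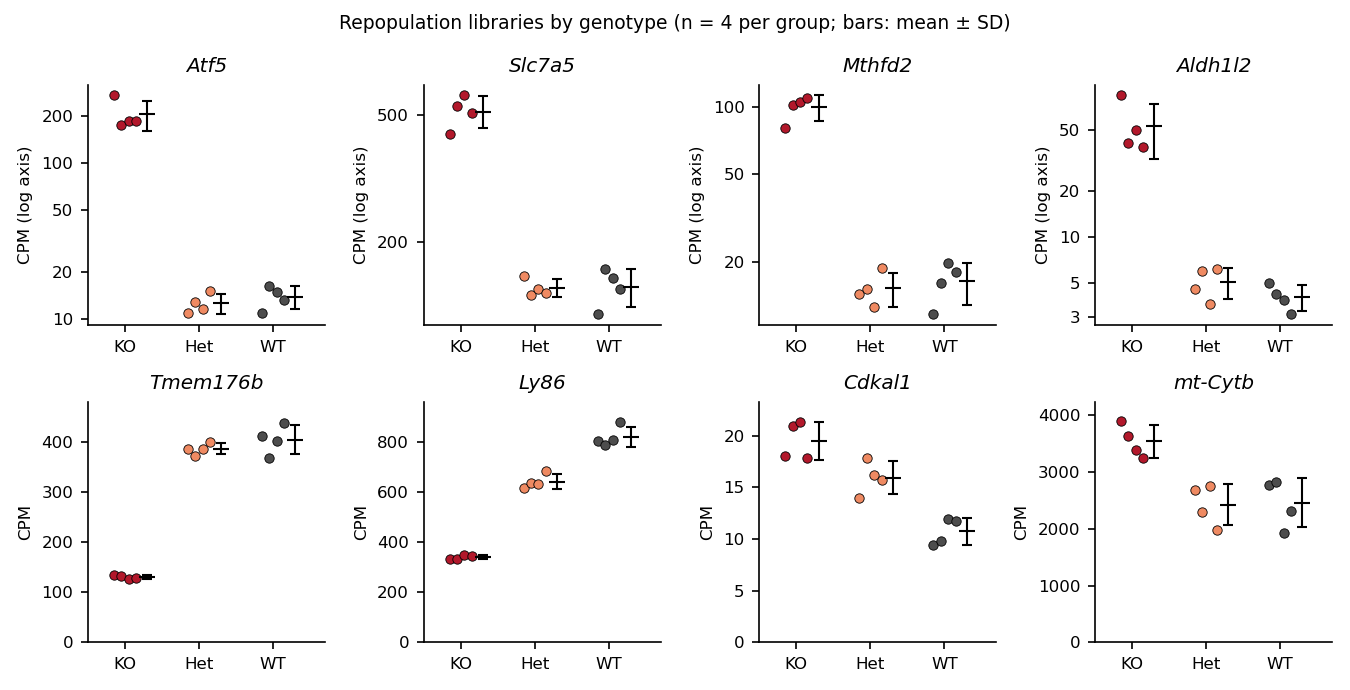
CPM in each KO, Het and WT repopulation library (points), with the mean and SD of 4 libraries (bars), for 4 integrated stress response genes on a log axis and for Tmem176b, Ly86, Cdkal1 and mt-Cytb on linear axes from 0. Het lies with WT for the stress response genes and Tmem176b, and its mean lies between those of KO and WT for Ly86 and Cdkal1.

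In the gene lists for other programmes few members had an unadjusted p under 0.05, as over all genes. Lists with 0 members at an unadjusted p under 0.05 were glycolysis (20 tested), the tricarboxylic acid cycle (16), iron-sulphur assembly (15), mitochondrial biogenesis (14), lysosome (25), MHC class I (15) and MHC class II (6). Their medians ran from -0.13 to 0.08. In KO against WT, 8 of 20 glycolysis genes were higher at an adjusted p of 0.05 in edgeR, where 7.31% of all genes were. Txn2, the mitochondrial thioredoxin, was the 1 of 21 antioxidant genes at that unadjusted p, with 48.2 to 56.7 CPM in Het libraries and 33.4 to 50.2 CPM in WT libraries (log2 fold change 0.46 ± 0.13).

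Microglial identity genes were abundant in both genotypes. Of 19 homeostatic genes, 1 was lower in Het at an unadjusted p under 0.05 in edgeR and the median log2 fold change was -0.07. That gene, Tmem119, a microglia-specific membrane protein, had 4685, 5008, 4561 and 5019 CPM in Het and 5484, 4814, 5574 and 5732 CPM in WT libraries (-0.16 ± 0.07, adjusted p = 0.960), with overlap. The purinergic receptor P2ry12 had 3274 to 4206 CPM in Het libraries and 3496 to 4817 CPM in WT libraries (-0.24 ± 0.12). Of 28 genes of injury-associated (DAM) microglia, Clec7a, the beta-glucan receptor, was the 1 at that p. It had 54.3 to 73.8 CPM in Het libraries and 28.7 to 55.8 CPM in WT libraries (0.54 ± 0.21).

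Of 24 cytokine and NF-kB genes, 19 had a positive fold change and 1 was lower in Het at an unadjusted p under 0.05, with a median log2 fold change of 0.25. With sex as a factor 9 were higher and 1 lower at such a p, where 5.63% of all genes had one, and without Het replicate 4 the median was -0.03.

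Among 27 interferon genes the median log2 fold change was 0.07. The RNA sensor Ifih1, which had an unadjusted p under 0.05, was at 77.4, 73.4, 78.5 and 101 CPM in Het and 64.9, 45.6, 57.6 and 45.3 CPM in WT libraries (log2 fold change 0.63 ± 0.15). The groups did not overlap, as for 2.88% of all genes tested. Ifih1 was named for its small p, which selects for this, and it did not pass the edgeR adjustment. Of 37 cell cycle genes 2 were higher and 0 lower at an unadjusted p under 0.05, near the 4.82% of all genes in either direction. They were the mitotic checkpoint kinase Bub1b (raw counts 31 to 84 in Het and 18 to 37 in WT libraries) and the kinetochore protein Cenpf. For Cenpf this rests on Het replicate 4, at 23.3 CPM, with the other 3 Het libraries at 0.841 to 1.65 CPM and WT libraries at 0.190 to 1.89 CPM.

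**Figure D4:**
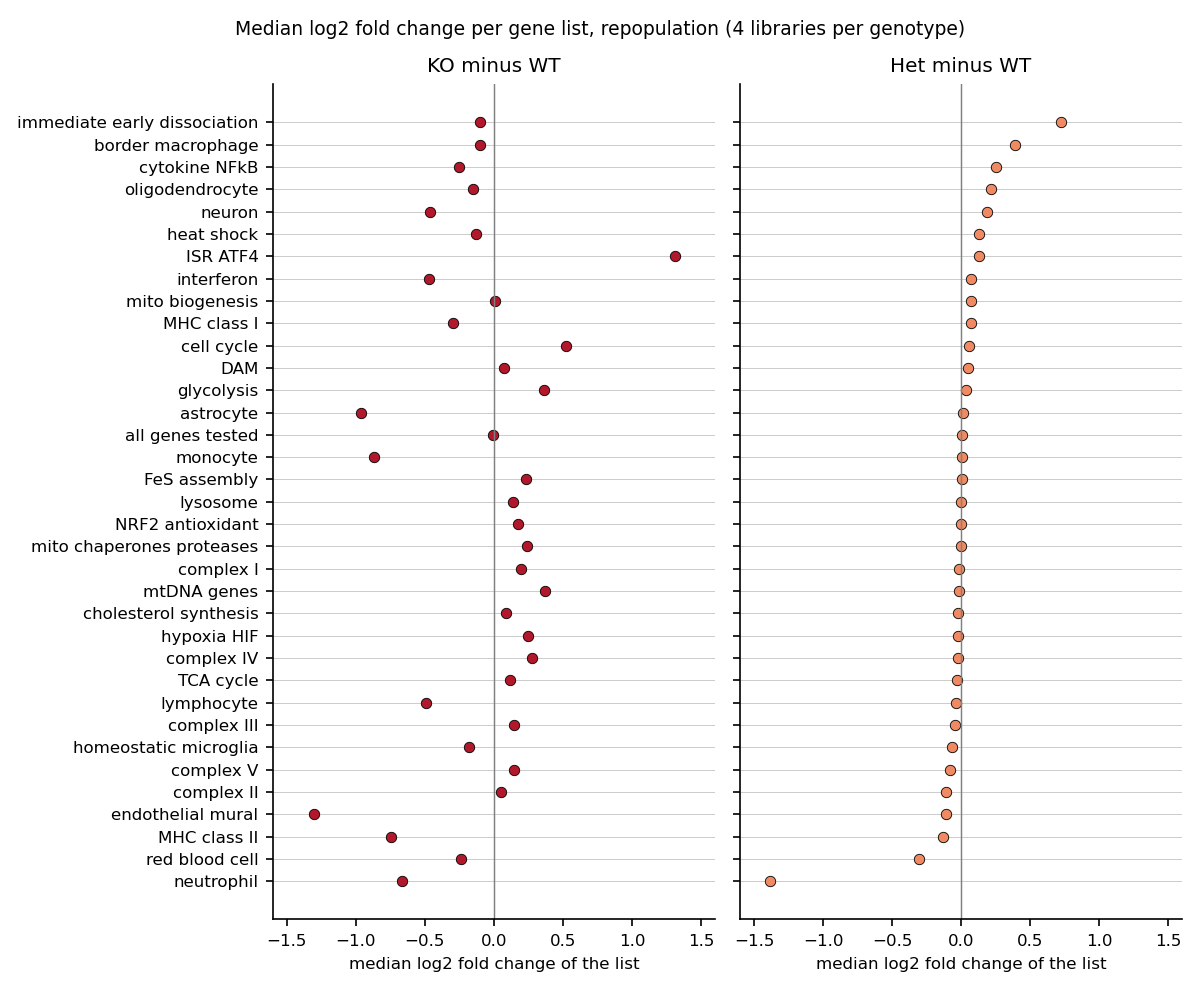
Median log2 fold change of each gene list over its tested genes at repopulation (without the lists of sex-linked genes, transgene loci and the RNAs Gm26917 and Yam1), for KO minus WT (left) and Het minus WT (right), with all genes tested as 1 of the rows. In Het most of these lists lie near 0, the immediate early and dissociation list at 0.73 and the neutrophil list (8 tested genes, all but Csf3r at 18.8 CPM or less in each library) at -1.38 being the farthest, while in KO the integrated stress response list is the farthest to the right at 1.31.

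The median of the neutrophil list changed with the handling of sex. It was -0.07 with sex as a factor and 0.31 in female libraries alone, where 6 genes were tested.

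Immediate early genes, which tissue dissociation is known to induce, had the highest positive median among lists with more than 1 tested gene. Of 23 genes, 22 had a positive Het minus WT fold change, where 6663 of all 12931 genes did, and the median log2 fold change was 0.73. In edgeR 4 were higher and 0 lower at an unadjusted p under 0.05, which 4.82% of all genes had in either direction. The 23 genes summed to 4446, 6134, 5528 and 19901 CPM in Het and 3301, 4286, 6962 and 8612 CPM in WT libraries. Het replicate 4 stood far above all others, and without it the median was -0.03 and 10 of 23 were positive. Male libraries were higher than female ones within each genotype. Among female libraries alone Het was higher than WT, with 22 of 23 genes positive, 16 higher and 1 lower at an unadjusted p under 0.05 and a median of 0.59, where 4.19% of all 13637 genes had such a p and 6977 were positive. With sex as a factor in the edgeR fit, 20 of 23 were higher at an unadjusted p under 0.05, against 5.63% of all genes in either direction, with a median of 0.86, and 0 passed the adjustment.

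Fosb, a subunit of AP-1, had 38.1, 99.0, 49.3 and 239 CPM in Het and 15.3, 25.0, 48.0 and 50.9 CPM in WT libraries (log2 fold change 1.61 ± 0.60, unadjusted p = 0.0244, and 1.87 with sex as a factor, unadjusted p = 0.000289). Egr3, a zinc finger factor, had 3.70, 4.20, 4.37 and 8.07 CPM in Het and 1.65, 2.32, 3.44 and 2.18 CPM in WT libraries (1.08 ± 0.35). Heat shock genes summed to 3691 to 5031 CPM in Het replicates 1 to 3 and 9790 CPM in Het replicate 4, and to 4526 to 6827 CPM in WT libraries. At depletion the Fosb difference had the other sign, with 15.6 and 4.47 CPM in Het libraries and 16.9 to 107 CPM in WT libraries, and in naive adults Het had 61.9 to 69.0 CPM and WT 14.8 to 54.6 CPM. Over the whole list at depletion, 2 of 23 genes had a positive fold change, with a median of -0.65. There 3 were lower at an edgeR unadjusted p under 0.05, which 8.05% of all genes had. In naive adults 23 of 23 were positive, with a median of 0.73. There 18 were higher at such a p, which 17.3% of all genes had, and sex and genotype cannot be told apart. The part of dissociation in these values was not tested.

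Markers of other cells were examined in the same libraries. Oligodendrocyte genes summed to 995, 654, 1960 and 602 CPM in Het and 1368, 1383, 566 and 387 CPM in WT libraries, and astrocyte genes to 404, 185, 298 and 175 CPM in Het and 335, 324, 157 and 140 CPM in WT libraries. Both were high in WT 1 and WT 2 and low in WT 3 and WT 4, and varied as much within Het. Border macrophage genes summed to 1441 to 1830 CPM in Het libraries and 1344 to 1783 CPM in WT libraries, with 0 of 13 genes at an unadjusted p under 0.05 and a median of 0.39 (0.05 in female libraries alone and 0.27 with sex as a factor). Without Het replicate 4, 2 of them were higher at such a p, where 299 of all 13149 genes tested were. Monocyte genes summed to 38.8 to 73.5 CPM in Het libraries and 38.6 to 67.9 CPM in WT libraries. Red blood cell genes summed to 2860 to 13600 CPM in Het libraries and 5323 to 14512 CPM in WT libraries. In bulk RNA, fewer cells of a type and less RNA per cell cannot be told apart, and the part of these cells in the genes above was not tested.

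**Figure D5:**
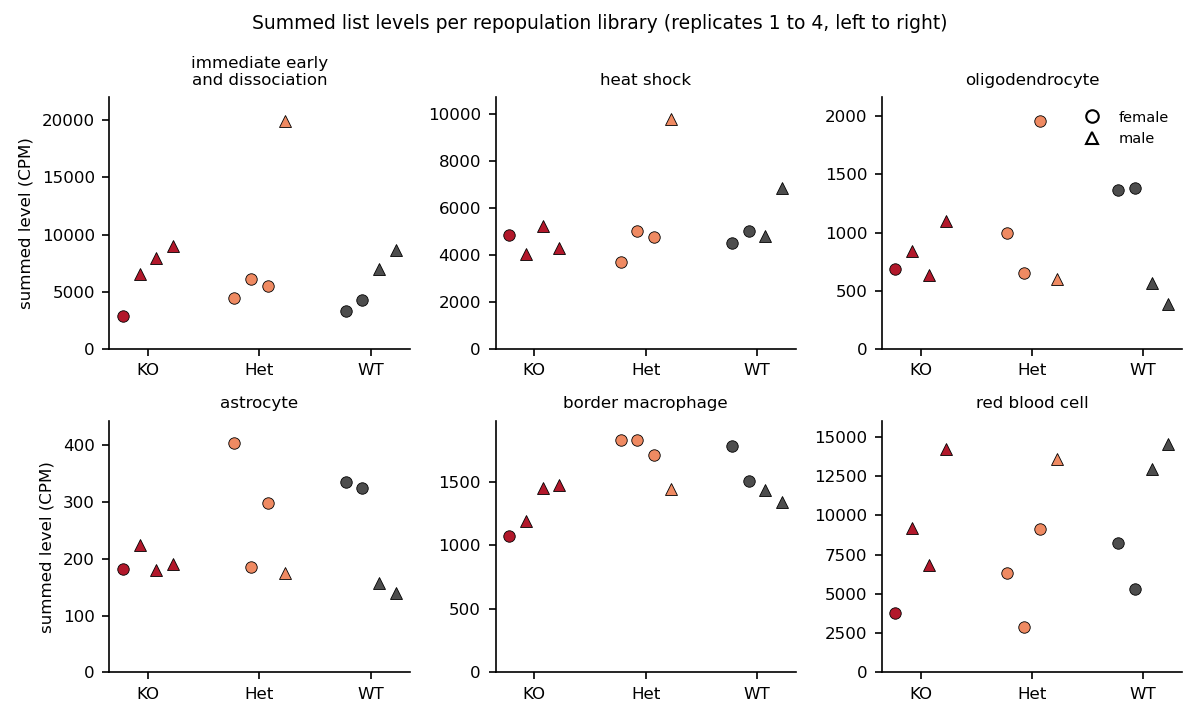
Summed level in CPM of 6 gene lists in each KO, Het and WT repopulation library, with circles for female and triangles for male libraries. Het replicate 4 is the highest library for immediate early and heat shock genes, and within each genotype the male libraries lie above the female ones for immediate early genes.

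The comparison was repeated in the other libraries of the series that hold both genotypes. At depletion, 2 Het against 4 WT libraries gave 1 call in edgeR (0.00739% of 13534 genes), Mettl17, a mitochondrial ribosome assembly factor, with a log2 fold change of 2.98 (adjusted p = 0.0158). It was lost without Het replicate 2, without WT replicate 1, 3 or 4, and with sex as a factor, and 7 genes were called without Het replicate 1. At an unadjusted p under 0.05 there were 1089 genes (8.05%). Mettl17 had raw counts of 631 and 693 in Het and 76 to 119 in WT depletion libraries, but 82 to 138 in Het and 727, 1075, 50 and 66 in WT repopulation libraries, so that libraries of 1 genotype and treatment fell far apart.

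In naive adults, 4 Het against 5 WT libraries gave 0 calls in edgeR (0% of 13257 genes), 2293 genes at an unadjusted p under 0.05 (17.3%) and 653 calls among 13211 genes in DESeq2. Without WT replicate 5 edgeR called 1508 of 13191 genes, Ly86 (log2 fold change -0.42, adjusted p = 0.0285) and Cdkal1 (0.46, adjusted p = 0.0322) among them. Uqcrfs1 was not called in that fit (-0.67, edgeR adjusted p = 0.0582). Without Het replicate 1 edgeR called 8 genes. In these naive sets all WT libraries were male and 3 of the 4 Het libraries female, so sex and genotype cannot be told apart. The test of whether the Het minus WT difference itself differed between repopulation and depletion called 1 of 14673 genes (0.00682%), 1 of the overlapping pair of genes named Pagr1a. At an unadjusted p under 0.05 there were 1443 genes (9.83%). Of the 10 genes with the smallest p at repopulation, Kmt2b had the smallest interaction p (difference 1.59, unadjusted p = 5.36e-05, edgeR adjusted p = 0.223), followed by Zbtb34 (0.93, unadjusted p = 0.000164, edgeR adjusted p = 0.311). Those 10 genes were chosen by p in the same repopulation libraries, which favours a small interaction p, so these p-values are descriptive only.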

How the data were processed

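RNA of sorted microglia was sequenced, and the authors deposited 1 table of raw read counts per gene for 64 libraries. The submitters' processing notes name the build GRCm38 and, with no role or order, Salmon 1.5.2, STAR 2.6.1d, bcl2fastq 2.20 and Trim Galore 0.6.7; which tool made the counts, and the annotation, are not given in the sources used here. Whether counting used strand is likewise not given, so overlapping genes are uncertain. Gene positions are those of GENCODE M21 on GRCm38 (45143 of 45708 genes).

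Groups follow the labels. The main test was edgeR 4.0.16 (quasi-likelihood, TMM scaling, two-sided) in R 4.3.3 on the 8 libraries alone, after filterByExpr (minimum count 10, minimum total 15), with Benjamini-Hochberg adjustment over all genes tested and a threshold of 0.05. Depletion, naive adults and the interaction had fits of their own, and KO against WT was fitted on the 12 repopulation libraries. The naive Het libraries are the 4 with under 1% of counts on Gm26917 and Yam1, as in WT. CPM are TMM-scaled. Log2 CPM in the permutation tests and components used a prior count of 2. Sex was called male above 10 CPM on the Y-linked genes. The script was tested on simulated data.

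Alternatives were DESeq2 1.42.0, its size factors in edgeR, no filter, other sets of libraries, a replicate block, sex as a factor and each library left out. Female libraries alone, and sex as a factor at depletion and for KO, were added after the data were seen. The 8 libraries, the gene lists and the rules were chosen with earlier results of these data known. Named genes are Uqcrfs1, all complex III genes, the 5 genes on each side with the smallest p among those whose mean log2 CPM reached 2, leaving out Rik and Gm-numbered symbols, the 5 nearest tested neighbours of Uqcrfs1 on each side, 4 stress response genes with the smallest p in KO, and list members with the smallest p. Tmem176b, Rreb1, Chm, Mettl17, Pagr1a, Gm5900, the mast cell genes, CreERT2, tdTomato and Cx3cr1 were named after their values were seen. One gene of the interferon list is not reported here.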

Additional observations from a re-analysis of the deposited data

Results flagged for a closer look

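In 100 sets of 4 values, covering 36 genes and 14 library measures in Het and WT repopulation libraries, 5 held a library far from the other 3; chance alone sets apart about 1 in 20. Het replicate 4 had the highest value in 4 of them. It held 36.8 CPM of Uqcrfs1, where the other Het libraries had 30.2 to 30.5 CPM. It held 23.3 CPM of Cenpf, against 0.841 to 1.65 CPM, and 8.07 CPM of Egr3, against 3.70 to 4.37 CPM. Its immediate early and dissociation genes summed to 19901 CPM, against 4446 to 6134 CPM in the other Het libraries. Het replicate 3 had the lowest Cx3cr1, the fractalkine receptor, with 2823 CPM, where the others had 3305 to 3380 CPM.

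One gene differed in its Het effect between repopulation and depletion. For Pagr1a (ENSMUSG00000030680) the fitted difference was -11.83 on the log2 scale (edgeR interaction term, adjusted p = 0.000105). Its raw counts were 165 to 345 in Het and 234 to 411 in WT repopulation libraries, and 337 and 282 in Het depletion libraries against 0 in each of the 4 WT depletion libraries, so the fitted value is no bound. A second gene of the same name (ENSMUSG00000107068) overlaps it on the same strand and had 38 and 63 counts in Het and 201 to 302 in WT depletion libraries. How reads were divided between the overlapping genes is uncertain.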

How the results depend on the processing

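For Het against WT at repopulation, every edgeR alternative with both sexes gave 0 calls, each of the 8 libraries left out included (0 to 0). DESeq2 gave 26 and female libraries alone 2; the cause of the difference between tools was not tested. Uqcrfs1 kept its direction and an unadjusted p under 0.05 throughout, with log2 fold changes of -0.89 to -0.73 when 1 library was left out and p = 0.0415 with all 64 libraries in the fit. Cenpf changed sign in female libraries alone (-0.22). Of the other values of named genes under alternatives, 14 passed the adjusted threshold in DESeq2 and 8 moved beyond the replicate spread in female libraries alone. The remaining 1817 stayed on their side of the threshold. They kept their sign where the main unadjusted p was under 0.05 and otherwise moved no further than the replicate spread. Because the edgeR alternatives with both sexes called no gene, staying on that side was fixed in them and is no measure of stability. At depletion, where 2 Het libraries limit the test, DESeq2 gave 101 calls, no filter 6, sex as a factor 0, and leaving out 1 library 0 to 7. In naive adults DESeq2 gave 653 and leaving out 1 library 0 to 1508, the last without WT replicate 5. For the difference between repopulation and depletion DESeq2 gave 119 and leaving out 1 library 1 to 22, the last without Het depletion replicate 1. For KO against WT the calls ran from 1430 to 1946 with 1 library left out.

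The replicate number as a block left 0 calls at repopulation and Uqcrfs1 at -0.82, and gave 0 at depletion, 553 in naive adults, 1 for the difference and 1694 for KO against WT. The labels do not say whether a shared number pairs libraries. Same-numbered Het and WT repopulation libraries correlated at -0.31 to 0.26 in their deviations from the group means. The lowest value was that of number 3, a female Het and a male WT library. Of 4 Het libraries, 1 correlated best with its own number. These 4 values are too few to decide whether the numbers pair the libraries. Of 2727 genes under a mean log2 CPM of 2, 435 had a 95% interval of the log2 fold change wholly between -1 and 1, against 9384 of all 12931.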

Other observations

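Of DESeq2's calls, 3 are genes of mast cell proteases, all at low levels. They were singled out after their values were seen, and none passed the adjustment in edgeR (adjusted p 0.943 to 0.959). Cpa3, the mast cell carboxypeptidase, had 0.805, 1.09, 1.29 and 1.598 CPM in Het and 2.38, 4.28, 4.13 and 6.16 CPM in WT libraries (log2 fold change -1.81 ± 0.37, edgeR adjusted p = 0.943, DESeq2 adjusted p = 0.0214). The chymase Mcpt4 had 2.74, 1.68, 2.22 and 4.47 CPM in Het and 10.9, 8.13, 5.16 and 7.77 CPM in WT libraries, and the tryptase Tpsb2 had 4.27, 4.12, 5.59 and 8.07 CPM in Het and 12.6, 11.6, 10.8 and 9.76 CPM in WT libraries. KO libraries had 0.501 to 0.835 CPM of Cpa3, below 3 of the 4 Het libraries. At depletion Cpa3 was at 5.58 and 10.5 CPM in Het libraries and 1.67 to 11.6 CPM in WT libraries, and in naive adults at 3.75 to 5.78 CPM in Het libraries and 2.04 to 6.04 CPM in WT libraries, so the ranges overlapped in both.

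Some genes fell into separate ranges among libraries of 1 genotype. The processed pseudogene Gm5900 (chromosome 7, 104949915 to 104950289), which DESeq2 called with the smallest p, had raw counts of 3, 0, 2 and 5 in Het and 45, 46, 51 and 34 in WT repopulation libraries, and 0 to 7 in KO libraries. At depletion the WT libraries had 30, 0, 2 and 47 counts, and the 4 naive Het libraries had 2, 50, 45 and 5. Both ranges thus occurred within WT and within Het. Chm, the gene of Rab escort protein 1, had 260 to 330 counts in Het and 965, 962, 297 and 236 in WT repopulation libraries.

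Of the transgenes, tdTomato had 205, 248, 240 and 327 CPM in Het and 206, 219, 179 and 185 CPM in WT libraries (log2 fold change 0.37 ± 0.13, edgeR unadjusted p = 0.0218), and CreERT2 had a log2 fold change of -0.13 ± 0.16. The ranges overlapped for both.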
